A study of Mus musculus with 22 samples.

Results

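The 9 transcription factor genes of the somite lineage described here, across the cells of mouse gastruloids, are Tcf15, Meox1, Meox2, Uncx, Tbx18, Foxc1, Foxc2, Pax1 and Pax9. They were chosen by symbol, and all 9 were found among the 32285 genes of the count matrices. Somites are blocks of tissue that bud in pairs from the presomitic mesoderm (PSM), which lies on both sides of the neural tube. Foxc1, Foxc2, Tcf15 and Meox1 are active as cells leave the PSM and become epithelial, Uncx and Tbx18 mark the posterior and the anterior compartment of each somite, and Pax1 and Pax9 mark the ventral part, the sclerotome, from which vertebrae and ribs form. Meox2 acts with Meox1 in sclerotome and muscle precursors.

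Gastruloids are small aggregates grown from embryonic stem cells, in which trunk tissues of the embryo arise in a dish. All were wild type (WT) and came from 1 line, E14Tg2A, so no genotype was compared. Each well of N2B27 medium received 300 cells, which aggregated over 48 h before CHIR99021, which activates Wnt signalling, was added as a pulse at 3 µM. Single gastruloids were taken apart with Accutase, tagged with a MULTI-seq barcode (a lipid-anchored DNA label of the gastruloid of origin), pooled, and split over lanes of 10x 3' single-cell RNA-seq. The groups were day 3 (24 gastruloids), day 3.5 (16), day 4 (16), day 4.5 (16) and day 5 (16) of MULTI-seq 3, day 4 (11) and day 4.5 (12) of MULTI-seq 2, and day 5 (24) of MULTI-seq 1. One lane each of pooled day 3 and day 4 gastruloids (the 10X experiment) and 2 lanes of pool C of MULTI-seq 2 had no gastruloid calls and served as single values. Days 3.5 and 4, and days 4.5 and 5, of MULTI-seq 3 shared lanes.

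The 18 lanes held 77674 final cells, of which 53730 had a gastruloid call, and a gastruloid entered with at least 30 cells (135 of 136). Lanes held between 30065021 and 238431052 unique molecular identifiers (UMIs, counted RNA molecules), with a median of 8287 to 38443 per cell. Of 153 pairs of lanes, 146 shared cell barcodes. The most shared by a pair was 15, and the highest share of a smaller lane, in another pair, was 0.41%. Levels are given in CPM, a gene's summed count in a gastruloid, or in its cells of one type, scaled to one common total of UMIs, and a group is described by its lowest, median and highest gastruloid. Levels were not compared between genes. Cell type names are those of the authors' cell table. They were made from gene expression, so levels are described across types without a test. The cells named Mature Somites were checked against fixed markers: over 5051 cells of MULTI-seq 3, 5 of 6 somite markers and 3 of 5 sclerotome markers reached 10 CPM, while 0 of 4 myogenic, 0 of 5 endoderm and 0 of 6 endothelial markers did. Of other lists, 2 of 5 presomitic (summed to 43.0 CPM), 1 of 7 cardiopharyngeal (43.5 CPM), 1 of 3 neuron (40.9 CPM) and 1 of 5 spinal cord markers (16.8 CPM) reached it. Head mesoderm markers, a list that shares Twist1 with the sclerotome list, were also present (4 of 5, summed to 594 CPM), at a sum close to the 638 CPM of the cells named Head Mesoderm.

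In GRCm38 (mm10), with GENCODE vM21 gene models, Tcf15 lay at chr2:152143561-152149097, Meox1 at chr11:101877510-101894374 on the minus strand, Meox2 at chr12:37108540-37179534 and Uncx at chr5:139543494-139548179. Tbx18 lay at chr9:87702800-87731260 on the minus strand, Foxc1 at chr13:31806633-31812476, Foxc2 at chr8:121116171-121118895, Pax1 at chr2:147361925-147393295 and Pax9 at chr12:56691767-56712822. Pax1, Meox1 and Pax9 each overlap an annotated gene on the opposite strand (AI646519, Gm11551, and Gm15524 with Slc25a21). Meox2 and Foxc2 overlap the sense-strand Gm48617 and Gm20388, and Tbx18 overlaps D030062O11Rik on the opposite strand. The sources used here do not give how reads there were assigned.

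The RefSeq promoter table (GRCm38.p6) held 6 of the 9 genes, all but Tcf15, Meox1 and Foxc2. The 250 bases before the start are printed for Meox2, Pax1 and Pax9, because their medians in Mature Somites were highest on day 5 and their windows held no annotated exon. The Pax1 and Pax9 windows lie within the GENCODE gene spans, upstream of the RefSeq start. All 3 are on the plus strand, and capitals mark CANNTG, the E-box bound by basic helix-loop-helix factors such as Tcf15.
Meox2, chr12:37108290-37108539: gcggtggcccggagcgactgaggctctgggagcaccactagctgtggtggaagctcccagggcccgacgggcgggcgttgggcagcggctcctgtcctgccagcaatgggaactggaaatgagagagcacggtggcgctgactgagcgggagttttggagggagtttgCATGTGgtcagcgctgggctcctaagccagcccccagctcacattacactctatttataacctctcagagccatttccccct
Pax1, chr2:147364744-147364993: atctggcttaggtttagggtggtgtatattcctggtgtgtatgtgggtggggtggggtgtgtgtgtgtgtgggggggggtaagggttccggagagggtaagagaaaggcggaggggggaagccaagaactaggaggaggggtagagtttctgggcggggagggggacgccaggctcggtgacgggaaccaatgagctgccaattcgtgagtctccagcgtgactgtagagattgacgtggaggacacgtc
Pax9, chr12:56695221-56695470: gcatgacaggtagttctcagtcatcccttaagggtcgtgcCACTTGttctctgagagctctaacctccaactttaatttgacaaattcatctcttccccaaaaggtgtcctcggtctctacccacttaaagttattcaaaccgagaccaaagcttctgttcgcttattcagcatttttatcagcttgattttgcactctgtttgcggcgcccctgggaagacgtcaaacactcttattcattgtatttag
The Meox2 and Pax9 windows held 1 E-box each and the Pax1 window held 0, beside 66.22% of 32851 windows of the same length with at least 1. None of the 3 held the homeodomain core TAATTA (4.84% of windows), the forkhead core GTAAACA (3.17%) or the T-box motif TCACACCT (1.12%), each searched on both strands. Of the windows not printed, that of Uncx held 2 TAATTA and that of Tbx18 held 1 E-box. Both of these windows lay wholly in annotated exons.

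Across the cell type names the 9 genes were high at different steps between PSM and somite, as the plot of levels by cell type shows. Medians by type pool the days of MULTI-seq 3, and types differ in how many gastruloids each day gave. The 2 forkhead genes were highest before somites form. In the 26 gastruloids of MULTI-seq 3 with at least 20 Late Anterior PSM cells, Foxc1 stood at 167, 218 and 267 CPM and Foxc2 at 195, 255 and 346 CPM. Foxc1 was already at 142 CPM (median, 39 gastruloids) in Late Posterior PSM, where Foxc2 stood at 45.7 CPM, and both were near 100 CPM in Mature Somites (108 and 101 CPM, 33 gastruloids). The ranges of Foxc1 in Early Anterior PSM (145 to 257 CPM) and Late Anterior PSM overlapped. Outside this series, Head Mesoderm had medians of 108 CPM for Foxc1 and 69.2 CPM for Foxc2 (12 gastruloids).

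Tcf15 (paraxis), a basic helix-loop-helix factor needed for somites to become epithelial, had its highest pooled median in Somites (1186 CPM, 22 gastruloids), but the order differed by day. On day 4 Tcf15 had medians of 647 CPM in Late Anterior PSM (9 gastruloids), 656 CPM in Somites (10) and 485 CPM in Mature Somites (7), with overlapping ranges. On day 5 Somites stood at 1104, 1388 and 1522 CPM (10 gastruloids), above all gastruloids of Late Anterior PSM (717, 895 and 1068 CPM, 12) and of Mature Somites (574, 731 and 1006 CPM, 16). The peak in Somites was thus clear on day 5 and not on day 4. Meox1, a homeodomain factor of the somite and its derivatives, was low in Late Posterior PSM on both days (7.74 CPM on day 4 and 21.1 CPM on day 5, medians). On day 4 its medians in the 3 later types were close, at 170 CPM in Late Anterior PSM, 132 CPM in Somites and 139 CPM in Mature Somites. On day 5 Meox1 stood at 182, 231 and 310 CPM in Late Anterior PSM, below all gastruloids of Somites (345, 408 and 555 CPM) and Mature Somites (396, 464 and 624.7 CPM), whose ranges overlapped. In Late Spinal Cord, a type of the neural lineage, Tcf15 had a median of 2.94 CPM and Meox1 of 1.48 CPM. Other mesoderm types held more Tcf15, with medians of 255 CPM in Head Mesoderm, 157 CPM in Late Nascent Mesoderm and 123 CPM in Cardiopharyngeal Mesoderm. These were above the 62.4 CPM of Late Posterior PSM. Meox1 stood at 12.2, 3.89 and 11.6 CPM in the same types, beside 15.2 CPM in Late Posterior PSM, with days pooled for both genes.

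**Figure D1:**
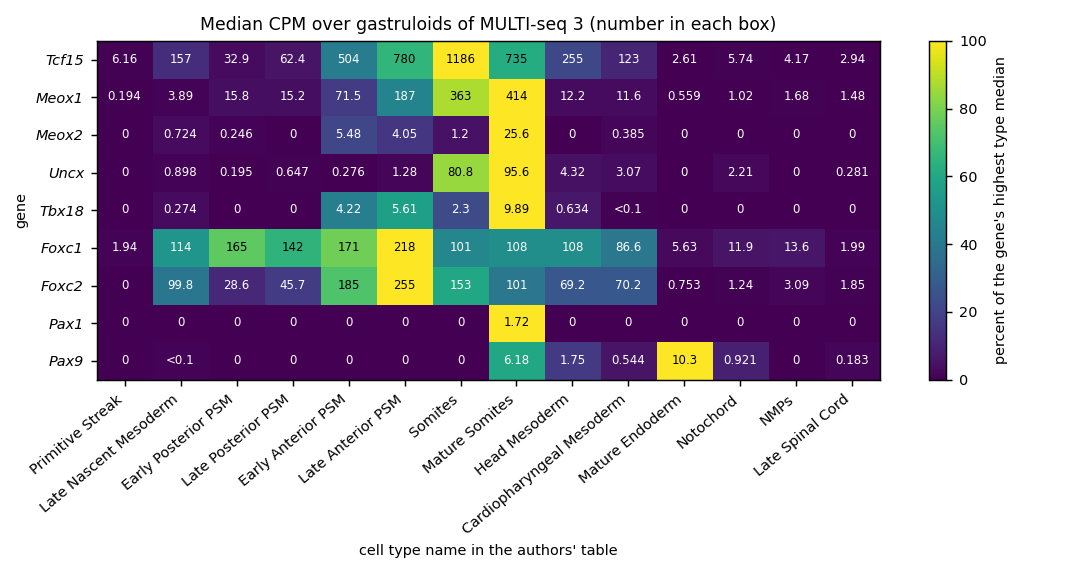
Median CPM over the gastruloids of MULTI-seq 3, days pooled, for each gene (vertical axis) and each cell type name (horizontal axis); the number in each box is the median and the colour its percent of the gene's highest type among those drawn. Foxc1 and Foxc2 are highest in Late Anterior PSM, Tcf15 in Somites, Meox1, Meox2, Uncx, Tbx18 and Pax1 in Mature Somites, and Pax9 in Mature Endoderm.

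Uncx and Tbx18, the markers of the 2 somite compartments, differed in when they appeared. Uncx, a homeodomain factor that keeps the posterior compartment distinct, was near background in Late Anterior PSM (0, 1.28 and 10.3 CPM) and stood at 26.1, 80.8 and 182 CPM in Somites and 19.1, 95.6 and 190 CPM in Mature Somites. Tbx18, a T-box factor that keeps the anterior compartment, was already present in Early Anterior PSM (1.40, 4.22 and 15.8 CPM, 14 gastruloids) and in Late Anterior PSM (0, 5.61 and 17.2 CPM). Its median then was 2.30 CPM in Somites and 9.89 CPM in Mature Somites. On day 4 alone the Tbx18 median was higher in Late Anterior PSM (10.4 CPM) than in Mature Somites (2.17 CPM), and the Uncx medians of Somites and Mature Somites were close (40.9 and 40.2 CPM). Meox2, the close relative of Meox1, also had a lower median in Somites than before and after them, with 5.48 CPM in Early Anterior PSM, 4.05 CPM in Late Anterior PSM, 1.20 CPM in Somites and 25.6 CPM in Mature Somites. With days pooled, the ranges of these 4 types overlapped for both genes, so only the medians are ordered. On day 5 alone Meox2 in Mature Somites (17.1 to 55.6 CPM) lay above Late Anterior PSM (1.10 to 11.8 CPM). It also lay above the highest Somites gastruloid of any day (3.56 CPM).

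Pax1 and Pax9, paired-box factors of the sclerotome and of the pharyngeal pouches, were almost absent before the Mature Somites step. In Somites cells Pax1 had 0 UMIs in all 6 groups with such cells, including 322 cells on day 5 of MULTI-seq 3, which allows at most 0.313 CPM there. On day 5 of MULTI-seq 3 Mature Somites made up 28.8% of cells and gave 93.9% of all Pax1 UMIs, 94.9% of Meox2, 88.9% of Uncx, 88.1% of Tbx18, 82.4% of Meox1 and 66.6% of Tcf15. The forkhead genes were spread more widely, with 46.5% of Foxc1 and 50.8% of Foxc2 UMIs in Mature Somites.

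Pax9 was divided between 2 germ layers. Mature Endoderm, 4.05% of the cells on that day, gave 46.9% of its UMIs, and Mature Somites also 46.9%. In Mature Endoderm of MULTI-seq 3, Pax9 stood at 1.83, 6.49 and 16.3 CPM on day 4 (13 gastruloids), at 24.7 and 32.3 CPM in the 2 gastruloids of day 4.5, and at 34.7, 40.0 and 52.6 CPM on day 5 (8 gastruloids). The ranges of day 4 and day 5 did not overlap. These days came from different lanes and were not tested. Pax1 was low in the same cells, with 2.29 CPM pooled on day 5 (exact Poisson interval 1.68 to 3.04, counting error only).

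The same contrast appeared in shares of single cells with a UMI. After each cell was thinned to 5000 UMIs, day 5 Mature Somites of MULTI-seq 3 held Tcf15 in 91.9% of 3190 cells, Meox1 in 83.0%, Foxc1 in 41.3%, Foxc2 in 36.1% and Uncx in 33.8%. Meox2 was found in 16.2%, Pax1 in 5.45%, Tbx18 in 5.39% and Pax9 in 4.17%. Late Spinal Cord cells, which should lack the genes, held them in 0.0477% (Pax1, Pax9) to 2.05% (Tcf15) of 2098 cells. Without thinning, at median depths of 24907.5 and 31399 UMIs, the shares were 98.9% against 9.72% for Tcf15, 61.3% against 1.10% for Uncx, 19.1% against 0.143% for Tbx18 and 16.6% against 0.429% for Pax1.

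In whole gastruloids 4 of the genes rose between day 3.5 and day 4 of MULTI-seq 3, as the plot of whole-gastruloid levels shows. On day 3 (24 gastruloids, in other lanes) Foxc2 stood at 0, 0.291 and 2.06 CPM and Meox1 at 0, 0.238 and 0.581 CPM, both with lower medians than on day 3.5. Foxc1 also had a lower median on day 3 than on day 3.5 (6.55 against 12.0 CPM), while Tcf15 (6.57 against 6.07 CPM) and Uncx (0.269 against 0.0936 CPM) had higher ones, and the other 4 had medians of at most 0.0839 CPM on both days. The step from day 3 to day 3.5 was not tested. A sum over a whole gastruloid cannot tell more cells of a type from more RNA per cell. Tcf15 stood at 3.24, 6.07 and 12.8 CPM on day 3.5 and at 7.78, 185 and 396 CPM on day 4 (16 gastruloids each), and Meox1 at 0.257, 1.14 and 3.90 CPM and then at 3.33, 27.3 and 88.1 CPM. For Tcf15, 14 of 16 day 4 gastruloids were above the highest of day 3.5, and for Meox1 15 of 16. The log2 changes were 4.67 ± 0.39 (SE, edgeR quasi-likelihood test, adjusted p = 9.3e-11) and 4.47 ± 0.41 (adjusted p = 3.1e-10).

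Foxc2 rose by 3.61 ± 0.43 (log2, adjusted p = 2.8e-08), from 0.649, 2.32 and 19.3 CPM to 4.37, 65.6 and 94.6 CPM, with 14 of 16 above the day 3.5 maximum. Foxc1 rose by 1.43 ± 0.45 (adjusted p = 0.0074), from 1.89, 12.0 and 105 CPM to 14.1, 102 and 133 CPM, and here the days overlapped more: 8 of 16 were above the day 3.5 maximum. These were all 4 members that passed the filter on low counts. Across all genes 60.4% of 13262 passed the threshold, 31.1% as higher, so a call alone was common in this comparison. A gene could pass the filter through day 4 alone, so the 4 of 4 is no support in itself. With no filter on low counts 8 members were called, all but Pax1, beside 36.7% of 25380 genes. With gastruloids of at least 100 cells 7 members were called, beside 59.3% of 13552 genes. The day 4 medians of the others were 2.96 CPM for Uncx, 1.30 for Meox2, 1.08 for Tbx18, 0.673 for Pax9 and 0.00872 for Pax1.

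**Figure D2:**
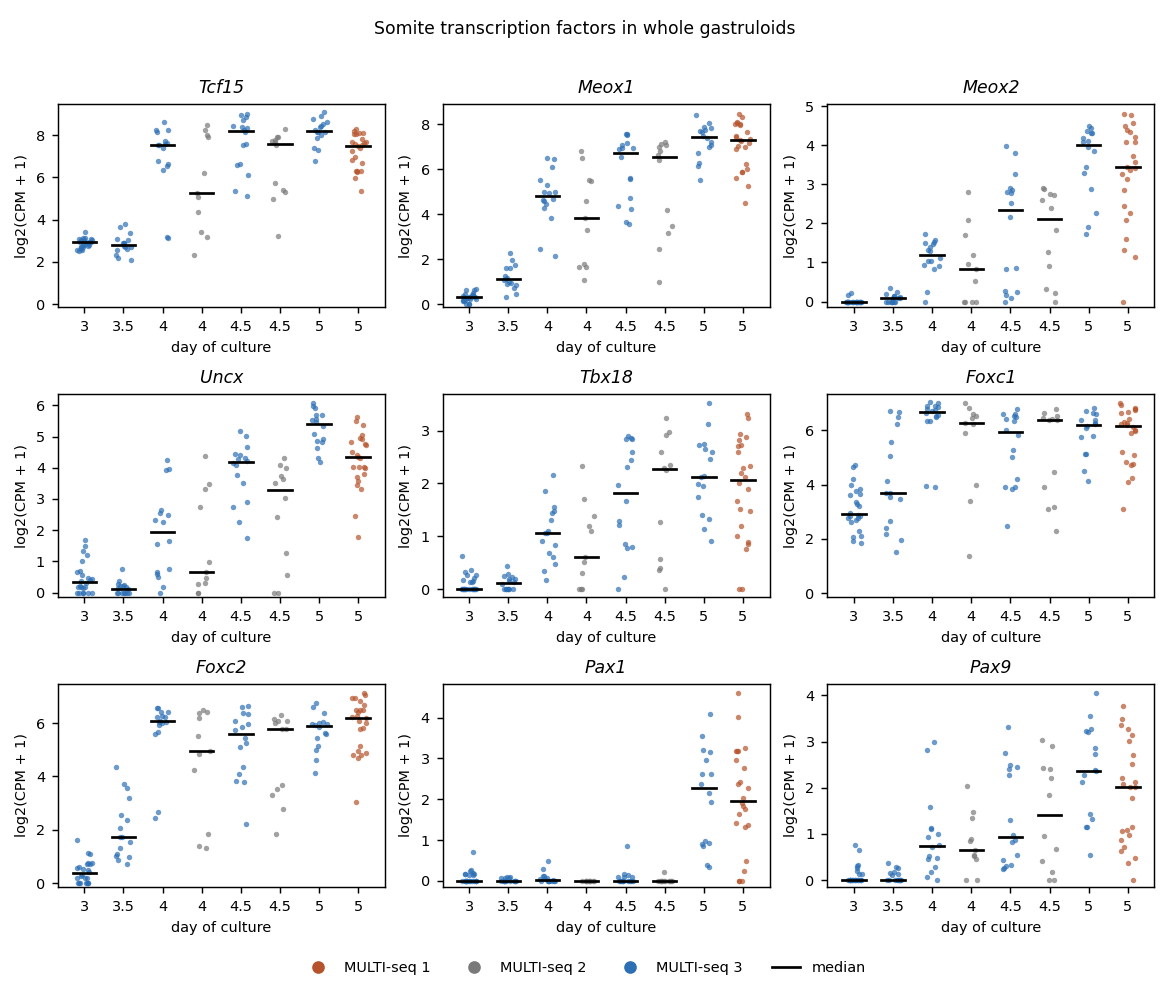
Level of each gene in whole gastruloids, as log2(CPM + 1), by day of culture; each point is 1 gastruloid, coloured by experiment, and the black line is the group's median. Tcf15, Meox1 and Foxc2 step up between day 3.5 and day 4, and Pax1 stays near 0 until day 5, where all 16 gastruloids of MULTI-seq 3 hold it.

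Fixed lists of other genes of the lineage were counted in this comparison, in which 31.1% of all genes were called higher. A listed gene could pass the filter on low counts through day 4 alone. The counts and list medians are thus no support in themselves. In the dermomyotome list 7 of 7 tested genes rose and 0 fell, among them Pax3 (log2 3.75) and Sim1 (3.18), which mark the dorsal somite and muscle precursors, with a list median of 2.83 beside 0.01 over all genes. In the epithelial somite list 8 of 10 rose, among them Dmrt2 (4.10), a regulator of the somite's early muscle compartment, and the protocadherin Pcdh8 (3.36), and in the sclerotome list 6 of 9, led by Foxd1 (3.15) and Twist1 (2.24). The list of PSM and boundary genes was split: Cer1 (4.60), Ripply2 (4.05) and Mesp2 (3.45), genes of the forming somite boundary, rose with 2 more of 11, while Msgn1, a gene of the posterior PSM, fell by 1.65.

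Gastruloids of one day differed widely in these genes. On day 4 of MULTI-seq 3 the gastruloid lowest in Tcf15 (7.78 CPM) had 1.03% of its 390 cells named Anterior PSM, Somites or Mature Somites, and the highest (396 CPM) had 42.4% of 743 cells. On day 5 the lowest (110 CPM) had 12.6% and the highest (553 CPM) had 67.6%. In MULTI-seq 2 the day 4 extremes were 3.97 CPM with 0% of 60 cells and 350 CPM with 57.2% of 187 cells. The part of the makeup in the whole-gastruloid differences was not tested beyond the comparisons within cell types given next.

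Between day 4.5 and day 5 of MULTI-seq 3, 2 of 8 tested members rose in whole gastruloids, beside 6.35% of 12298 genes called higher (13.5% in either direction). Uncx stood at 2.38, 17.1 and 35.3 CPM and then at 17.0, 41.0 and 65.8 CPM (log2 1.24 ± 0.25, adjusted p = 0.00089). Meox2 stood at 0, 4.10 and 14.7 CPM and then at 2.30, 15.2 and 21.5 CPM (log2 1.52 ± 0.45, adjusted p = 0.021). For Uncx 9 and for Meox2 8 of 16 day 5 gastruloids were above the day 4.5 maximum. Meox1 (0.86 ± 0.35, adjusted p = 0.095) and Pax9 (1.15 ± 0.47, adjusted p = 0.10) did not pass, and Tcf15, Tbx18, Foxc1 and Foxc2 changed by 0.18 to 0.38 with adjusted p of 0.59 or more.

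Pax1 was under the filter in that comparison but was the gene whose days overlapped least. It was at 0 in 10 of 16 day 4.5 gastruloids, with a highest value of 0.811 CPM, and above 0 in 16 of 16 on day 5, at 0.275, 3.82 and 16.0 CPM. Of these, 13 were above the day 4.5 maximum. With no filter Pax1 was called (edgeR adjusted p = 2.2e-06), beside 5.73% of 24583 genes called in either direction. In the fixed lists 3 of 9 tested sclerotome genes rose and 0 fell. Among them were Scx (log2 1.18), a factor of tendon precursors, and the cartilage collagen Col2a1 (0.72). A listed gene could pass the filter through day 5 alone, so the 3 of 9 is no support in itself. The retinoic acid enzyme Aldh1a2 fell by 1.14 as the 1 of 10 epithelial somite genes called. Between day 4 and day 4.5 of MULTI-seq 2 (11 and 12 gastruloids), 0 of 5 tested members passed, beside 7.36% of 11064 genes. None of the 5 had an unadjusted p under 0.05 in edgeR, and DESeq2 called 0. The largest difference was that of Meox1 (1.10 ± 0.64, adjusted p = 0.32 in edgeR and 0.35 in DESeq2).

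Within Mature Somites cells the day 4.5 to day 5 difference could be taken apart from the number of those cells (10 and 16 gastruloids with at least 20 of them). Of the 9 genes 5 rose and 0 fell, or 4 of 8 without Pax1, which passed the filter on low counts through day 5 alone, beside 6.94% of 10328 genes called higher (14.6% in either direction). Uncx stood at 31.1, 62.6 and 115 CPM and then at 86.2, 124 and 190 CPM, with 16 of 16 day 5 gastruloids above the earlier median and 10 above its maximum (log2 1.02 ± 0.15, adjusted p = 6.1e-06). Meox1 stood at 320, 374 and 442 CPM and then at 396, 464 and 624.7 CPM, with 13 of 16 above the earlier maximum (0.38 ± 0.06, adjusted p = 3.7e-05). The Meox1 groups thus barely overlapped although the change was small.

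Pax1 stood at 0, 0 and 2.85 CPM and then at 1.22, 10.5 and 49.8 CPM. On day 4.5, 7 of 10 gastruloids were at 0, and on day 5, 14 of 16 were above 2.85 CPM. The fitted change was 5.04 ± 0.85 (log2, adjusted p = 4.8e-05), and the pooled levels were 0.372 CPM (exact Poisson interval 0.178 to 0.684) and 14.4 CPM (13.7 to 15.2). Pax1 could pass the filter only through day 5, so that a gene that passed in this way had to be higher there.

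Meox2 stood at 6.36, 22.2 and 53.5 CPM and then at 17.1, 43.1 and 55.6 CPM (0.81 ± 0.18, adjusted p = 0.0016), with 14 of 16 above the earlier median and 2 above its maximum. Pax9 stood at 0, 5.21 and 9.99 CPM and then at 1.83, 8.22 and 18.2 CPM (0.73 ± 0.24, adjusted p = 0.035), and this call was lost when any 1 of the 3 lanes was left out (adjusted p = 0.056 to 0.094). Tcf15 (-0.10 ± 0.08), Tbx18 (-0.15 ± 0.19), Foxc1 (-0.00 ± 0.05) and Foxc2 (-0.07 ± 0.07) did not pass, with adjusted p of 0.50 to 1.00. Leaving Pax1 aside, the genes that rose were thus Meox1, Meox2, Uncx and Pax9.

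**Figure D3:**
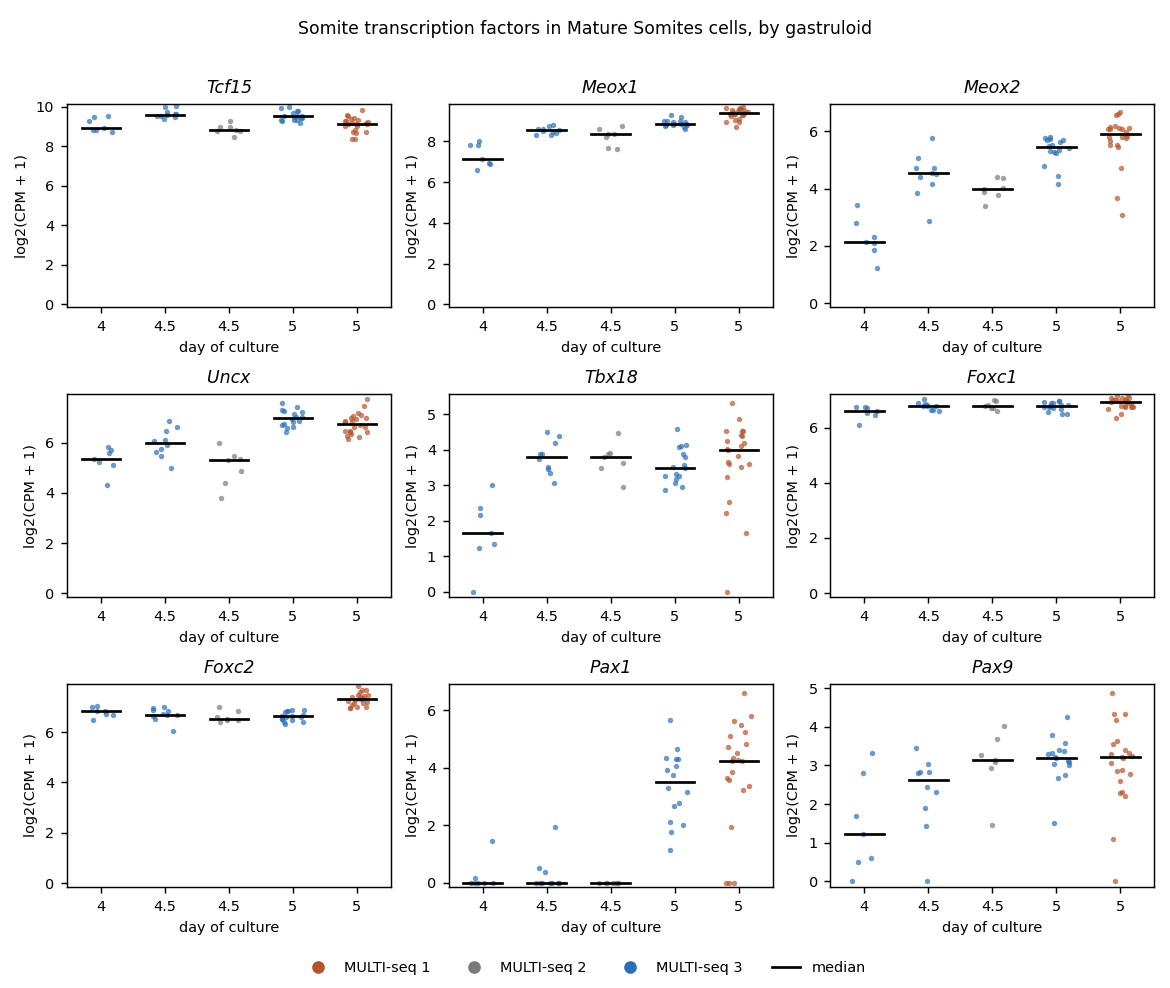
Level of each gene in the Mature Somites cells of single gastruloids, as log2(CPM + 1), by day of culture; points are gastruloids with at least 20 such cells, coloured by experiment, and black lines are medians. Between day 4.5 and day 5 of MULTI-seq 3 (blue) the points of Uncx, Meox1 and Pax1 move up while those of Tcf15, Foxc1 and Foxc2 cover the same range.

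The makeup of the Mature Somites cells moved with the day. The authors mapped cells onto an embryo reference. Cells mapped to Sclerotome were 21.9% of 916 Mature Somites cells on day 4.5 and 34.9% of 3190 on day 5. Dermomyotome-mapped cells were 23.1% and 26.5%, and Posterior somitic tissues 22.3% and 26.1%. Paraxial mesoderm went from 11.2% to 2.38%, Anterior somitic tissues from 6.99% to 2.57% and Cranial mesoderm from 8.84% to 5.17%. On day 4.5 Meox1 stood at 297, 109 and 208 CPM in these last kinds of cell, in that order. Sclerotome-mapped and Dermomyotome-mapped cells held it at 427 and 432 CPM. Pax9 stood at 1.47, 11.8 and 9.98 CPM there, beside 8.06 and 3.44 CPM. On day 5 Meox1 stood at 335, 164 and 209 CPM in the first 3 kinds, beside 457 and 557 CPM in Sclerotome-mapped and Dermomyotome-mapped cells. In the same order Pax9 stood at 1.20, 8.15 and 11.1 CPM, beside 14.4 and 7.54 CPM. Pax1 was higher on day 5 in Sclerotome-mapped and in Dermomyotome-mapped cells. In the former it stood at 1.18 CPM (exact Poisson interval 0.433 to 2.57) and then at 27.5 CPM (25.6 to 29.5). In the latter it stood at 0.550 CPM (0.150 to 1.41) and then at 9.99 CPM (8.87 to 11.2). Uncx went from 73.3 to 110 CPM and from 93.3 to 154 CPM in the same 2 kinds of cell, and Meox2 from 36.2 to 49.7 CPM and from 33.1 to 54.7 CPM. In Sclerotome-mapped cells alone, 4 day 4.5 gastruloids had enough cells and 0 of the 9 genes passed, beside 1.57% of 9588 genes. There the changes were 0.07 for Meox1, 0.67 for Meox2, 0.54 for Uncx, 3.87 for Pax1 and 0.56 for Pax9 (log2, adjusted p = 0.82, 0.33, 0.41, 0.13 and 0.50). Apart from these values, the part of the makeup in the 5 calls was not tested.

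Genes of the fixed lists changed in the same cells. A listed gene could pass the filter through day 5 alone, so counts of genes that rose and the list median are no support in themselves. In the sclerotome list 5 of 8 tested rose, among them Zic1 (1.26 ± 0.42) and Scx (1.09 ± 0.23), while Twist1 fell by 0.31. The list median was 0.63, beside 0.00 over all genes. Of 6 PSM and boundary genes Dll1, the Notch ligand, rose by 0.77 ± 0.11, and Cer1 (-1.78) and Ripply1 (-1.05) fell. Of 9 epithelial somite genes 3 fell, Aldh1a2 most (-0.96), and of 6 dermomyotome genes the receptor Met fell by 0.72 and none rose.

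Tcf15 changed differently in the 2 neighbouring types. In Late Anterior PSM it stood at 669, 717 and 823 CPM on day 4.5 (5 gastruloids) and at 717, 895 and 1068 CPM on day 5 (12), with 12 of 12 above the earlier median and 10 above its maximum. In Mature Somites it stood at 668, 775 and 1058 CPM and then at 574, 731 and 1006 CPM, where 11 of 16 were below the earlier median. The day effect in Mature Somites minus that in Late Anterior PSM, tested in 1 model with the gastruloid as a block (5 and 12 gastruloids with both types), was -0.59 ± 0.08 (log2, edgeR, adjusted p = 2.4e-06). Tcf15 was the 1 member of 9 that passed, beside 1.38% of 9431 genes. Foxc2 had -0.33 ± 0.10 (adjusted p = 0.095). Day effects of the other 7 genes were not shown to differ between the types, and for Pax1 the estimate had an SE of 73.0 and carries no information.

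In Late Posterior PSM (9 and 15 gastruloids), Tcf15, Meox1 and Foxc2, 3 of 4 tested members, rose between day 4.5 and day 5 of MULTI-seq 3, beside 3.14% of 8421 genes called higher (6.15% in either direction). Tcf15 went from 35.0, 62.4 and 112 CPM to 37.0, 141 and 188 CPM (1.12 ± 0.14, adjusted p = 1.3e-07), and Meox1 from 4.66, 12.1 and 16.8 CPM to 8.87, 21.1 and 87.4 CPM (1.04 ± 0.25, adjusted p = 0.0062). For both genes 12 of 15 day 5 gastruloids were above the day 4.5 maximum. The Meox1 call was lost without lane 2 (0.85, adjusted p = 0.10) and with at least 50 cells per gastruloid (1.11, adjusted p = 0.091).
Foxc2 went from 33.8, 47.4 and 64.7 CPM to 45.7, 67.6 and 91.5 CPM (0.57 ± 0.10, adjusted p = 0.00019), and Foxc1 changed by 0.17 ± 0.06 (adjusted p = 0.085). In the same cells 4 of 5 tested genes of the sclerotome list rose (median 0.60, beside 0.00 over all genes). A listed gene could pass the filter through day 5 alone, so the 4 of 5 and the list median are no support in themselves. Of 8 epithelial somite genes 1 rose and 3 fell.

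Day 5 gastruloids of MULTI-seq 1 and MULTI-seq 3 were compared within types. Lanes, depth (8287 to 15709 against 26466 to 30826 UMIs per cell) and experiment cannot be told apart here. In Mature Somites (22 and 16 gastruloids) 54.2% of 8915 genes were called, and 6 of the 9 were: Tcf15 (log2 0.63 ± 0.09) and Uncx (0.43 ± 0.10) were higher in MULTI-seq 3, and Foxc2 (-0.49 ± 0.06), Meox1 (-0.30 ± 0.06), Meox2 (-0.35 ± 0.13) and Pax1 (-0.75 ± 0.33) lower. The share is near the background, and no weight is given to the count. Foxc2 stood at 122, 158 and 226 CPM in MULTI-seq 1 and at 79.7, 98.0 and 117 CPM in MULTI-seq 3, without overlap. The share of all genes without overlap between these groups was not counted, so no weight is given to this either. The Meox2 and Pax1 calls were lost in DESeq2 (adjusted p = 0.089 and 0.18). Pax1 was again present in MULTI-seq 1 on day 5, at 0, 18.1 and 95.6 CPM, with 3 of 22 gastruloids at 0.

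In Late Anterior PSM (14 and 12 gastruloids, 39.9% of 6704 genes called) Tcf15 was higher in MULTI-seq 3 (0.59 ± 0.06) and Meox1 (-0.58 ± 0.10) and Foxc2 (-0.44 ± 0.06) lower, the same directions as in Mature Somites. In Late Posterior PSM (20 and 15 gastruloids, 52.4% of 7816 genes) Tcf15 (1.24 ± 0.12) and Foxc1 (0.26 ± 0.06) were higher, 2 of 4 tested. In whole gastruloids of day 5 (24 and 16, 63.7% of 11718 genes) Tcf15 (1.08 ± 0.20) and Uncx (1.13 ± 0.21) were higher, 2 of 9 tested, and between MULTI-seq 3 and MULTI-seq 2 0 of 8 tested passed on day 4 (46.1% of 13713 genes) and 0 of 8 on day 4.5 (42.5% of 11695 genes). DESeq2 also called 0 in both, and 0 and 1 (Uncx) had an unadjusted p under 0.05 in edgeR.

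In lanes with no gastruloid calls the Mature Somites cells gave single values. Day 4 of the 10X experiment (222 cells) held Pax1 at 1.67 CPM (exact Poisson interval 0.542 to 3.90), Meox2 at 11.4 CPM and Uncx at 47.4 CPM. Of the 2 lanes of pool C, which mixes days 4 and 4.5, 294 cells held Pax1 at 0.374 CPM (0.0453 to 1.35) and 239 cells at 1.93 CPM (0.880 to 3.66). All 3 values were below the day 5 medians of MULTI-seq 3 and MULTI-seq 1.

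On day 5 Tbx18 was found less often in cells with Uncx than in cells without it. Among day 5 Mature Somites cells of MULTI-seq 3, thinned to 5000 UMIs, Tbx18 was found in 8 of 1079 cells with Uncx (0.741%, exact binomial interval 0.321 to 1.46) and in 164 of 2111 cells without it (7.77%, 6.66 to 8.99). In MULTI-seq 1 the shares were 1.35% of 519 cells and 9.69% of 1125 cells. The odds ratio (0.5 added to each count) was 0.094 over the pooled cells of MULTI-seq 3 and 0.136 in MULTI-seq 1. It was below 1 in 16 of 16 gastruloids of MULTI-seq 3 and in 13 of 13 of MULTI-seq 1, and 10 gastruloids of each had no cell with both. Stratified by gastruloid (Mantel-Haenszel) it was 0.089 and 0.067. These values are descriptions without a test, since cells of a gastruloid share their source.

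At earlier days few cells held both genes after thinning. The pooled odds ratio was 0.134 on day 4.5 of MULTI-seq 3 (below 1 in 7 of 8 gastruloids), 0.560 on day 4.5 of MULTI-seq 2 (2 of 6) and 0.755 on day 4 of MULTI-seq 3 (3 of 5), from 2, 3 and 3 cells with both genes. With all UMIs, more cells held both genes, and the same 3 groups gave 0.283 (8 of 8), 0.383 (6 of 6) and 0.629 (5 of 6) from 47, 15 and 26 such cells. Day 4 of MULTI-seq 2, with 1 gastruloid of enough cells, gave 0.195 over its pooled cells: Tbx18 was in 1 of 64 cells with Uncx and in 13 of 124 without it. On day 5 the ratios with all UMIs were 0.178 in MULTI-seq 3 (16 of 16, 173 cells with both) and 0.143 in MULTI-seq 1 (14 of 14, 28 cells). There Tbx18 was in 8.84% of 1956 cells with Uncx and in 35.3% of 1234 without it in MULTI-seq 3. In MULTI-seq 1 it was in 3.72% of 753 and 21.5% of 949. Beside the 173 cells with both, 436 cells of MULTI-seq 3 held Tbx18 without Uncx. Joint detection was thus less frequent but not absent.

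**Figure D4:**
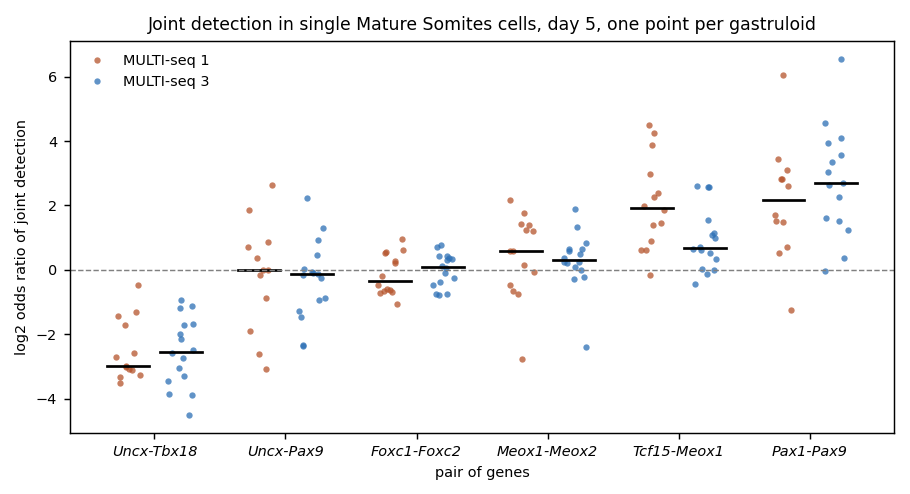
Log2 odds ratio of finding both genes of a pair in single Mature Somites cells on day 5, after thinning to 5000 UMIs; each point is 1 gastruloid with at least 50 such cells, coloured by experiment, and black lines are medians. Uncx and Tbx18 lie below 0 in all gastruloids drawn, Pax1 and Pax9 lie mostly above, and Foxc1 and Foxc2 are spread around 0. For Pax1 and Pax9, 4 of 15 gastruloids of MULTI-seq 3 and 6 of 12 of MULTI-seq 1 had no cell with both genes. The constant added to each count can alone put such points above 0.

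Other pairs behaved differently. Pax9 was found in 13.2% of 174 cells with Pax1 and in 3.65% of 3016 without it (day 5, MULTI-seq 3). The pooled odds ratio was 4.08 there and 4.16 in MULTI-seq 1. Stratified by gastruloid (Mantel-Haenszel) it was 2.91 and 3.01. In single gastruloids it was above 1 in 14 of 15 and in 11 of 12. However, 4 of the 15 and 6 of the 12 had no cell with both genes. The constant added to each count can alone put such a gastruloid above 1. For this pair the counts of gastruloids above 1 are thus no support in themselves. Tcf15 and Meox1 gave 1.71 (13 of 16) and 2.72 (13 of 14), and Meox1 and Meox2 gave 1.36 (12 of 16) and 1.75 (9 of 14). Foxc1 and Foxc2, whose levels followed each other across types, gave 1.00 (9 of 16) and 0.953 (6 of 14) within Mature Somites, and Uncx and Pax9 gave 0.810 (5 of 16) and 0.885 (5 of 12). With all UMIs Uncx and Pax9 gave 0.976 (7 of 16) in MULTI-seq 3 and 1.22 (9 of 14) in MULTI-seq 1, where the direction turned. Foxc1 and Foxc2 also turned in MULTI-seq 1, to 1.56 with all UMIs (above 1 in 10 of 14). With all UMIs the median ratio over gastruloids of MULTI-seq 3 was 34.3 in place of 1.61 for Tcf15 with Meox1, 3.30 in place of 1.24 for Meox1 with Meox2 and 2.45 in place of 1.07 for Foxc1 with Foxc2. The 34.3 does not measure the strength of the relation, since 98.9% of these cells held Tcf15 and 98.4% Meox1. With so few cells lacking a gene, the constant added to each count can alone give a large ratio. Stratified by gastruloid (Mantel-Haenszel) the ratio of Tcf15 with Meox1 was 9.17.

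Cells with Uncx alone and with Tbx18 alone were then set side by side for the listed genes. This comparison was chosen after the pair values were seen, uses all UMIs, and has no test. On day 5, 15 gastruloids of MULTI-seq 3 (1783 and 436 cells) and 14 of MULTI-seq 1 (725 and 204 cells) had at least 5 cells of each kind. Dll1, which marks the posterior compartment of the somite, stood at 39.1 CPM with Uncx and 6.47 CPM with Tbx18 and was higher with Uncx in 15 of 15 gastruloids (50.2 and 12.6 CPM in MULTI-seq 1, 14 of 14). The ephrin ligand Efnb2, also a gene of the posterior compartment, stood at 93.2 and 50.9 CPM (15 of 15 gastruloids, and 11 of 14 in MULTI-seq 1). Dll1 and Efnb2 were named after their values were seen. Of 38 list genes, 2 were higher with Uncx in all gastruloids of MULTI-seq 3, and 1 of 34 in MULTI-seq 1. The somite transcription factors are not counted there. Epha4, of the same epithelial somite list as Efnb2, stood at 49.7 CPM with Uncx and 52.1 CPM with Tbx18. It was higher with Uncx in 8 of 15 gastruloids, and in 8 of 14 of MULTI-seq 1. Median depths of the 2 kinds of cell were 25742 and 27007.5 UMIs in MULTI-seq 3. The 2 kinds were not matched by embryo-mapped type. On day 5 of MULTI-seq 3 Tbx18 stood at 19.5 CPM in Sclerotome-mapped and 11.3 CPM in Dermomyotome-mapped Mature Somites cells. Uncx stood at 110 and 154 CPM in these. The part of the mapped type in the differences given here was not tested.

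Several genes leaned the other way. Sox9, a cartilage regulator, stood at 63.3 CPM with Tbx18 and 23.8 CPM with Uncx (higher with Tbx18 in 13 of 15 gastruloids, and in 12 of 14 of MULTI-seq 1), and Twist1 at 225 and 159 CPM (14 of 15 and 12 of 14). Col2a1 of the same sclerotome list also leaned to Tbx18 (12 of 15 and 10 of 14). Others of that list did not. In MULTI-seq 3 Foxd1 stood at 132 and 130 CPM and Scx at 10.0 and 10.7 CPM. Zic1 was higher with Uncx in 12 of 15 gastruloids of MULTI-seq 3 and in 6 of 14 of MULTI-seq 1. Among the 9 genes Meox1 leaned to Uncx (538 against 394 CPM, 13 of 15, and 14 of 14 in MULTI-seq 1), as did Tcf15 (765 against 620 CPM, 14 of 15 and 10 of 14). Foxc1 leaned to Tbx18 (135 against 108 CPM, 14 of 15 and 11 of 14), as did Meox2 (53.4 against 44.2 CPM, 11 of 15 and 10 of 14). Foxc2 was higher with Uncx in 13 of 15 gastruloids of MULTI-seq 3 and in 6 of 14 of MULTI-seq 1. Pax1 and Pax9 had no common direction, with Pax1 higher with Tbx18 in 9 of 15 and in 6 of 14 gastruloids.

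**Figure D5:**
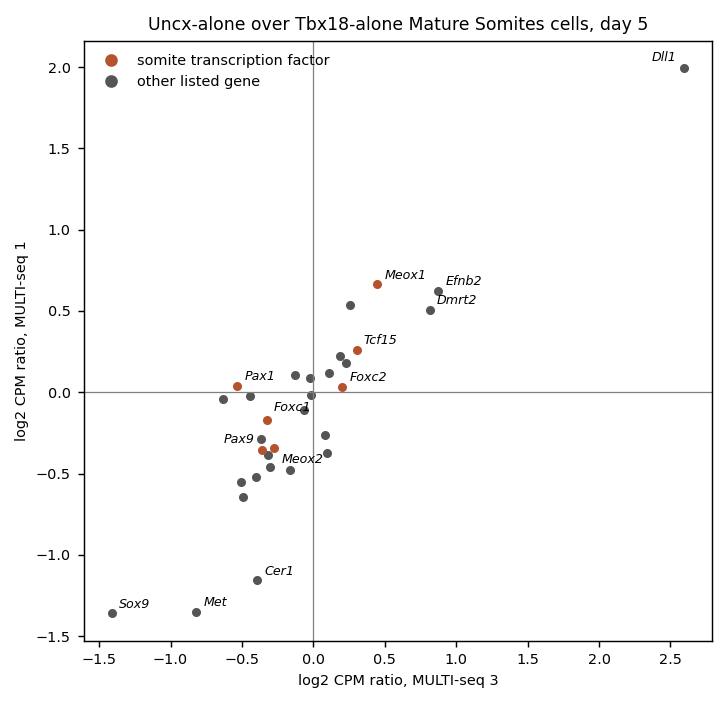
Log2 ratio of pooled CPM in Mature Somites cells with Uncx alone over those with Tbx18 alone on day 5, in MULTI-seq 3 (horizontal) and MULTI-seq 1 (vertical); points are the 32 listed genes with at least 20 UMIs in each kind of cell in both experiments. Dll1 lies far to the upper right and Sox9 to the lower left, and of the 7 somite transcription factors drawn Meox1 lies furthest up.

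The genes most like each member were taken over 40 sums of cell type by day in MULTI-seq 3, by Pearson's r of log2(CPM + 1) among the 4368 genes that reached 50 CPM in at least 1 sum. Meox2, Tbx18, Pax1 and Pax9 stayed below that level, so they could not appear as the nearest gene of another member. The sums share lanes and types share gastruloids, so r is a description. Tcf15 was most like Foxc2 (0.96), Meox1 (0.94) and the homeobox gene Prrx2 (0.93), Meox1 most like Tcf15 (0.94), the chemokine Cxcl12 (0.92) and Dmrt2 (0.92), and Foxc2 most like Tcf15 (0.96), Pcsk5 (0.93) and Prrx2 (0.93). Foxc1 was most like Pdlim4 (0.92), the receptor Pdgfra (0.92) and Foxc2 (0.90). Uncx was most like 2610016A17Rik (0.89), Ebf2 (0.88) and Ift22 (0.86).
Meox2 and Tbx18 shared all 3 nearest genes among those that reached 50 CPM: Rnf121 (0.87 and 0.91), Cxcl12 (0.86 and 0.87) and Meox1 (0.84 and 0.88). Pax9 was most like Gprc5c (0.86), Commd3 (0.86) and Vtn (0.85). Pax1 had the loosest likeness, to Fxyd6 (0.68), Eno3 (0.67) and Foxd2os (0.65).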

How the data were processed

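The values are raw UMI counts as the authors deposited them. The submitters' processing notes name Cell Ranger 6.0.0, Seurat and the build mm10, without the role of each. The sources used here do not name the annotation release. Cells, gastruloid calls, days, cell type names and embryo-mapped types came from the authors' deposited cell table, which marks 0 of its cells as hybrid doublets; cells without 1 gastruloid call entered lane values only, and no doublet caller was run. Counts were summed per gastruloid (at least 30 cells), or per gastruloid and type (at least 20). Genes were tested with edgeR 4.0.16 (TMM, filterByExpr, quasi-likelihood test, Benjamini-Hochberg over all genes tested, threshold 0.05), in fits holding only the 2 groups compared. Nothing beyond the MULTI-seq barcodes says how independently gastruloids were grown, so p-values measure the spread between gastruloids. On simulated counts the test recovered 97% of 2-fold changes in whole gastruloids (day 5 against day 4.5, 12298 genes) and 100% in Mature Somites (10328 genes). The changed genes there were drawn at random from all tested genes but the lowest expressed. The rates thus do not hold for members with few UMIs or a wide spread between gastruloids. A member that did not pass is not shown to be unchanged. DESeq2 1.42.0 was an alternative. The 9 genes, the gene lists and the cell type markers were chosen with earlier results of these data known. Named genes are the 9, the 3 most like each, and list genes past the threshold, at most 3 per list by size of change, with some list genes not reported here; the genes named for Uncx and Tbx18 cells were chosen after their values were seen. Of 22 samples in the labels, 18 were analysed here.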

Additional observations from a re-analysis of the deposited data

Results flagged for a closer look

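Dixon's test for a single extreme value was applied to 74 groups of 4 to 10 gastruloids, of which 11 held one. Chance gives about 1 in 20 only for independent, normally distributed values. These groups share gastruloids and several sit near 0 CPM, so the 11 is not weighed against that rate. A group with 1 gastruloid above 0 is always flagged, and in every flagged Pax9 group the next value was 0 CPM. On day 4 of MULTI-seq 3, 1 gastruloid of 10 stood apart in Somites for Meox1 (506 CPM, the next 264 CPM) and for Uncx (149 CPM, the next 79.5 CPM), and another for Tbx18 (14.1 CPM, the next 6.56 CPM), the same gastruloid that was highest of 7 for Pax1 in Mature Somites (1.72 CPM). Yet another was highest for Pax9 in Somites (0.493 CPM) and of 9 for Meox2 in Late Anterior PSM (15.9 CPM), and a different one for Pax9 in Late Anterior PSM (0.701 CPM). On day 4.5, 1 of 10 was highest for Pax1 in Mature Somites (2.85 CPM) and 1 of 5 for Pax9 in Late Anterior PSM (1.54 CPM). On day 5 of MULTI-seq 1, 1 of 4 was lowest for Meox1 in Somites (583 CPM) and 1 of 4 highest for Pax9 there (4.39 CPM).

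The day 5 against day 4.5 effect on Tcf15 differed between Mature Somites and Late Anterior PSM (log2 -0.59, edgeR adjusted p = 2.4e-06, 17 gastruloids). It used gastruloids with at least 20 cells of both types, and with at least 10 the adjusted p was 0.0012.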

How the results depend on the processing

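No paired analysis was possible because, between days or experiments, each gastruloid belongs to 1 group and carries no shared replicate number, while lanes are technical splits of a pool. Cell types of 1 gastruloid were paired in the difference of day effects. The alternatives were DESeq2, its size factors in edgeR, no filter on low counts, stricter cell minimums, the most frequent embryo-mapped type alone and leaving out each lane. Of the counts of members called, the day 4 against day 3.5 count of 4 became 8 with no filter, beside 36.7% of all genes. With at least 100 cells it became 7, beside 59.3% of all genes. More members were tested in these settings. The Mature Somites day 5 against day 4.5 count of 5 became 0 with Sclerotome-mapped cells alone, where day 4.5 had 4 gastruloids. It was 4 with any 1 lane left out, and MULTI-seq 3 against MULTI-seq 2 on day 4.5 gave 0 to 1 (Uncx, adjusted p = 0.032 to 0.14).

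Some directions reversed, in differences that were not called, and each reversed value had an adjusted p of 0.69 or more. The cause was not tested. Tcf15 between day 4 and day 4.5 of MULTI-seq 2 became -0.37 with at least 100 cells, and ranged from -0.026 to 0.12 with a lane left out. In MULTI-seq 3 against MULTI-seq 2 on day 4, at least 100 cells gave Tcf15 -0.34, Foxc1 -0.035, Foxc2 -0.13 and Pax9 -0.16, and leaving out a lane gave -0.59 to 0.34 for Tbx18 and -0.23 to 0.52 for Pax9. On day 4.5 Foxc1 was 0.023 in DESeq2 and -0.091 to 0.022 without a lane. Against MULTI-seq 1, leaving out a lane gave -0.15 to 0.024 for Foxc2 in Late Posterior PSM and -0.023 to 0.097 for Foxc1 in Late Anterior PSM, and the latter was -0.028 with at least 50 cells and -0.0080 in the mapped type. Foxc1 in Mature Somites between day 4.5 and day 5 was 0.017 with no filter, 0.0050 in the mapped type and -0.031 to 0.022 without a lane.

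Counts of calls over all genes moved by more than 1.5 times in some settings. Mature Somites between day 4.5 and day 5 had 1508 calls and 151 in the mapped type, and against MULTI-seq 1 they had 4834 and 2810. Late Posterior PSM between the days had 518, 236 with at least 50 cells and 266 to 309 without a lane, and Late Anterior PSM against MULTI-seq 1 had 2672, 1277 with at least 50 cells and 1030 in the mapped type. MULTI-seq 2 had 814 and as few as 340 without a lane, and the difference of the day effects had 130 and 216 with at least 10 cells.

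Pax1, Pax9, Tbx18 and Meox2 rest on few UMIs per cell, so that shares of cells with a UMI understate the cells holding them. Intervals cover counting error only.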
